A study of Mus musculus with 6 samples.

Results

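Promyelocyte and azurophilic granule genes were examined in splenic monocytes of mice with and without the interleukin-4 receptor alpha chain (IL-4Rα). The 10 genes were chosen by name from the 55421 gene identifiers measured, and all 10 were found. They were the azurophilic granule genes *Mpo*, *Elane*, *Prtn3* and *Ctsg*, the promyelocyte genes *Ms4a3* and *Fcnb*, the transcription factor genes *Cebpe*, *Gfi1* and *Myb*, and the progenitor surface gene *Cd34*. Each of them had more than 3 counts in every library and passed the filter on low counts, which 13849 genes passed.

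The wild-type group was IL-4Rα+/+ and the knockout group IL-4Rα-/-, a full knockout that removes the receptor chain from every cell of the animal and not from monocytes alone. Both groups were of the C57BL/6 strain, with no treatment named, and held 3 mice and 3 libraries each. Per the study's methods, the animals were adult. Monocytes were taken from spleen cell suspensions with a magnetic kit that removes other cells by antibodies, so cells that escape those antibodies stay in the sample. Polyadenylated RNA was sequenced, and the libraries held 26807281 to 29033297 reads on genes, so that 1 count was worth 0.0338 to 0.0377 CPM (counts of a gene scaled to the size of the library).

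Azurophilic or primary granules are formed in promyelocytes, early precursors of neutrophils. Myeloperoxidase and the serine proteases neutrophil elastase, proteinase 3 and cathepsin G are made at that stage and packed into the granules, and their transcripts fall as the cells mature. Common progenitors of granulocytes and monocytes also make these transcripts, whereas mature neutrophils and mature monocytes hold few of them. In bulk RNA of this kind, a different number of cells carrying a transcript and a different amount of it per cell cannot be told apart.

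*Il4ra*, the targeted gene, was at 137, 128 and 177 CPM in the IL-4Rα+/+ libraries 1, 2 and 3 and at 27.9, 79.4 and 31.8 CPM in the IL-4Rα-/- libraries 1, 2 and 3. All knockout libraries were below all wild-type libraries, and IL-4Rα-/- 2 held more of the transcript than the other two. The log2 fold change was -1.67 with an SE of 0.41, and it was not called by edgeR (adjusted p = 0.618). DESeq2 called it (adjusted p = 0.0111), and over the other alternatives its adjusted p ran from 0.172, without IL-4Rα-/- 2, to 0.901. Without IL-4Rα-/- 2 the log2 fold change was -2.30. Counts cover the whole gene, so reads outside the deleted part would be included, and where the reads lie was not tested. The libraries also differed in sex as read from their RNA: *Xist* had 15739 counts in IL-4Rα+/+ 1 and 13512 in IL-4Rα-/- 3 against 1 to 103 in the others, so each genotype held 1 female and 2 male libraries. IL-4Rα-/- 2 stood apart by pancreatic acinar transcripts, whose 13 genes summed to 367 CPM there and to 10.4 to 54.2 CPM in the other libraries. The sample identity was checked on monocyte genes: *Lyz2*, coding for lysozyme, was at 8839 to 17012 CPM and *Csf1r*, the receptor for macrophage colony-stimulating factor, at 2225 to 3092 CPM over the 6 libraries.

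The azurophilic genes lie at 3 places in the genome (GRCm38, Gencode). *Prtn3* (chr10:79874476-79883174, plus strand) and *Elane* (chr10:79886247-79888215, plus strand) are neighbours with 3073 bp between them. *Mpo* is on chromosome 11 and *Ctsg* on chromosome 14. The bases before the RefSeq start site are shown for these 4 genes, which were all lowest in one library and highest in another. *Ms4a3* and *Fcnb* shared that lowest and highest library, and their bases are not shown. The sequences are from RefSeq (GRCm38.p6), 150 bases each, 5′ to 3′ on the strand of the gene. Capitals mark the letters searched for on both strands: GAGGAA as bound by PU.1, TGTGG as bound by RUNX factors, AACNG as bound by Myb, ATTGC as bound by C/EBP factors, and TATAA.
Mpo: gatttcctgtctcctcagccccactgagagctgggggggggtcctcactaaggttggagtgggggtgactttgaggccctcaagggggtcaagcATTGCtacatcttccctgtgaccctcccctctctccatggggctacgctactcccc
Elane: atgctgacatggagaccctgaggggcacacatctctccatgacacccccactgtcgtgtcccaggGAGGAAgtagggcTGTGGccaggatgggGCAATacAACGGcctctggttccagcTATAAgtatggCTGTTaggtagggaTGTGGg
Prtn3: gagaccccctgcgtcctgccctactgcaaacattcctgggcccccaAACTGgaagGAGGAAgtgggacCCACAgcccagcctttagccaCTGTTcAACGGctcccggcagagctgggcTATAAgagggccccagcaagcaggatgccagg
Ctsg: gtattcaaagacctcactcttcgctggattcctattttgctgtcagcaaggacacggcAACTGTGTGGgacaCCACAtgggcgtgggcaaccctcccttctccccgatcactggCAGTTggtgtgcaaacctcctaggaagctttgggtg
The stretches are chr11:87793634-87793783 for *Mpo*, chr10:79886162-79886311 for *Elane* and chr10:79879517-79879666 for *Prtn3*, all on the plus strand, and chr14:56102575-56102724 on the minus strand for *Ctsg*. The first coding transcript of Gencode starts 203 bases before the RefSeq start of *Mpo*, 65 bases before that of *Elane* and 53 bases before that of *Prtn3*, and both annotations place the start of *Ctsg* at the same base.

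The windows of the neighbouring genes *Elane* and *Prtn3* are given with every match in the stretch printed. *Elane* had GAGGAA starting 85 bases before the start, TGTGG at 72, the C/EBP letters on the other strand at 57, AACGG at 50, TATAA at 31, the Myb letters on the other strand at 20 and TGTGG again at 6. *Prtn3* had AACTG at 104, GAGGAA at 95, the RUNX letters on the other strand at 82, the Myb letters on the other strand at 61, AACGG at 55 and TATAA at 32. *Ctsg* held the Myb letters at 92 and 36 and the RUNX letters at 87 and 78, and the first match of each adjoin without sharing a base. Within this stretch *Mpo* held only the C/EBP letters, at 56 bases before its start.

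RefSeq windows were matched for 9 of the 10 genes, not for *Cebpe*. In the 250 bases before the start, the PU.1 letters occurred in 4 of the 9, *Mpo*, *Elane*, *Prtn3* and *Ctsg*, and in 23.3% of the windows of all 32851 promoters. TATAA was found in 4 of the 9 and in 22.8% of all windows. The RUNX letters were found in 6 of the 9 (49.3% of all windows), the Myb letters in 7 of the 9 (74.2%) and the C/EBP letters in 2 of the 9 (23.1%). *Fcnb* held only the Myb letters and TATAA, and *Ms4a3* held none of the letters searched for. The letters were chosen with the windows in view, and a match is a description of the sequence only.

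None of the 10 genes passed the test for a difference between genotypes, while 9 of the 10 had a higher estimate in IL-4Rα-/-. With edgeR's quasi-likelihood test and an adjusted p under 0.15, 0 of the 10 were called, as were 0.0% of the 13849 genes tested. At an unadjusted p under 0.05 the counts were 0 of the 10 and 1120 of all genes (8.09%). At that unadjusted p DESeq2 gave 3 of the 10 (*Elane*, *Ctsg* and *Ms4a3*) and 1208 of all genes with a p-value, whose number is not given. The fit without a filter gave the same 3, limma voom gave 2 (*Elane* and *Ctsg*) and the fit with sex as a term gave 1 (*Cd34*). Leaving out single libraries gave 0 to 3, the 3 (*Prtn3*, *Ctsg* and *Fcnb*) without IL-4Rα+/+ 3. For the fits without a filter, with limma voom, with sex or with a library left out, the count over all genes is not given. No excess is read from these fits or from the count of DESeq2. DESeq2 called 0 of the 10 and 0.571% of the 14003 genes it adjusted. Adjusted p-values of the 10 genes ran from 0.620 to 0.995 with edgeR, and from 0.406 to 0.999 over all alternatives tried. An estimate above 0 was found for 51.5% of all genes tested. The median log2 fold change was 0.98 over the 10 genes and 0.01 over all genes tested. All IL-4Rα-/- libraries were above all IL-4Rα+/+ libraries in 2 of the 10 genes, *Elane* and *Ctsg*, and in 7.63% of all genes tested.

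**Figure D1:**
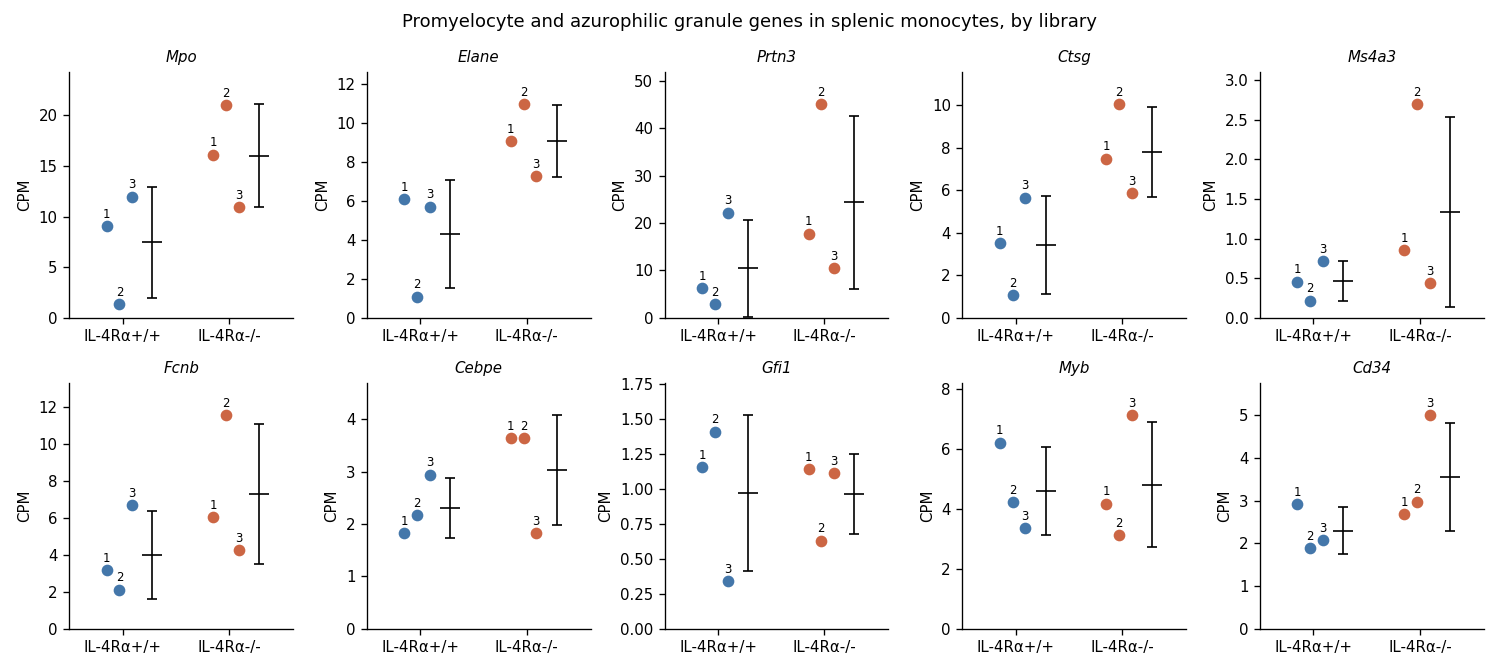
Level of each of the 10 genes in CPM (y axis, own scale per gene) in the 3 IL-4Rα+/+ and the 3 IL-4Rα-/- libraries; numbers are library numbers, and the bar beside the points is the mean ± SD. Library IL-4Rα+/+ 2 is the lowest point in 7 of the 10 genes and IL-4Rα-/- 2 the highest in 7.

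*Mpo* codes for myeloperoxidase, which makes hypochlorous acid from hydrogen peroxide. Its levels were 9.02, 1.34 and 11.96 CPM in IL-4Rα+/+ and 16.1, 21.03 and 10.9 CPM in IL-4Rα-/- (257, 37 and 317 counts against 452, 601 and 323). The groups overlapped, since IL-4Rα-/- 3 lay below IL-4Rα+/+ 3, and the wild-type library 2 held far less than the other two. The means were 7.44 ± 5.48 CPM and 16.0 ± 5.06 CPM (SD, n = 3 each). The log2 fold change was 1.11 with an SE of 0.68, and 0.61 without IL-4Rα+/+ 2.

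*Elane*, the gene of neutrophil elastase, was at 6.07, 1.08 and 5.70 CPM in IL-4Rα+/+ and at 9.06, 10.95 and 7.27 CPM in IL-4Rα-/-. The groups did not overlap, and the nearest libraries were IL-4Rα+/+ 1 and IL-4Rα-/- 3, the 2 female ones. The means were 4.28 ± 2.78 CPM and 9.09 ± 1.84 CPM (SD, n = 3 each), with a log2 fold change of 1.08 and an SE of 0.57. Leaving out IL-4Rα+/+ 2 lowered the log2 fold change to 0.63.

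*Ctsg*, coding for cathepsin G, was at 3.51, 1.05 and 5.66 CPM in IL-4Rα+/+ and at 7.49, 10.04 and 5.88 CPM in IL-4Rα-/-. The groups did not overlap, but IL-4Rα+/+ 3 and IL-4Rα-/- 3 were close, at 150 and 174 counts. The log2 fold change was 1.20 with an SE of 0.55, the largest estimate in units of its error among the 10 genes, and its adjusted p was 0.620 (edgeR). It was 0.77 without IL-4Rα+/+ 2 and 1.77 without IL-4Rα+/+ 3.

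*Prtn3*, coding for proteinase 3, had the widest spread of the proteases. It was at 6.21, 2.89 and 22.2 CPM in IL-4Rα+/+ and at 17.7, 45.1 and 10.4 CPM in IL-4Rα-/-. The groups overlapped, with IL-4Rα+/+ 3 second only to IL-4Rα-/- 2 among the 6 libraries. The means were 10.4 ± 10.3 CPM and 24.4 ± 18.3 CPM (SD, n = 3 each), and the log2 fold change of 1.23 had an SE of 0.82. It was 0.43 without IL-4Rα-/- 2 and 2.42 without IL-4Rα+/+ 3. With both libraries numbered 2 left out, a choice made after the data were seen, it was -0.012, against 0.37 for *Mpo*, 0.47 for *Elane* and 0.54 for *Ctsg*.

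The proportion of *Prtn3* to the adjacent *Elane* was not constant. There were 1.02, 2.67 and 3.89 counts of *Prtn3* for each count of *Elane* in IL-4Rα+/+, and 1.96, 4.12 and 1.43 in IL-4Rα-/-. Counts of *Mpo* for each count of *Elane* ran from 1.23 to 2.10 over the same libraries, and those of *Ctsg* from 0.578 to 0.993. The ratio of the neighbours was thus lowest in the 2 female libraries, 1 of each genotype, and highest in IL-4Rα-/- 2 and IL-4Rα+/+ 3. On the opposite strand *Plppr3* shares 159 of the 1732 exon bases of *Prtn3* (9.18%). *Plppr3* had 85, 34 and 237 counts in IL-4Rα+/+ and 57, 380 and 61 in IL-4Rα-/-, so it was also highest in those 2 libraries. The strand setting of the counts is not named in the sources used here, and without strand the reads from the shared bases cannot be told apart.

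The other flanking genes were also read. *Cfd*, on the far side of *Elane*, had 0 or 1 count in each library. *Ptbp1*, on the far side of *Prtn3*, coding for an RNA-binding splicing regulator, was at 201 to 221 CPM in IL-4Rα+/+ and at 181 to 230.1 CPM in IL-4Rα-/-, with a log2 fold change of -0.07. *Mcpt8*, the basophil protease gene next to *Ctsg*, was lowest in IL-4Rα+/+ 2 at 1.70 CPM and highest in IL-4Rα-/- 1 at 15.6 CPM. Its genotypes did not overlap. *Tspoap1*, next to *Mpo*, was lowest in IL-4Rα+/+ 2 at 8.21 CPM and highest in IL-4Rα-/- 2 at 17.0 CPM, with overlapping groups. *Lpo*, on the other side of *Mpo*, had 1 to 7 counts in each library.

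Summed over *Mpo*, *Elane*, *Prtn3* and *Ctsg*, the level was 24.8, 6.36 and 45.5 CPM in IL-4Rα+/+ and 50.4, 87.1 and 34.5 CPM in IL-4Rα-/-. These sums rest on 176 counts in IL-4Rα+/+ 2 and on 707 to 2489 counts in the other libraries. The span from the lowest to the highest library was 15.7-fold for *Mpo*, 15.6-fold for *Prtn3*, 10.1-fold for *Elane* and 9.58-fold for *Ctsg*. IL-4Rα+/+ 2 was the lowest and IL-4Rα-/- 2 the highest library in each of the 4.

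**Figure D2:**
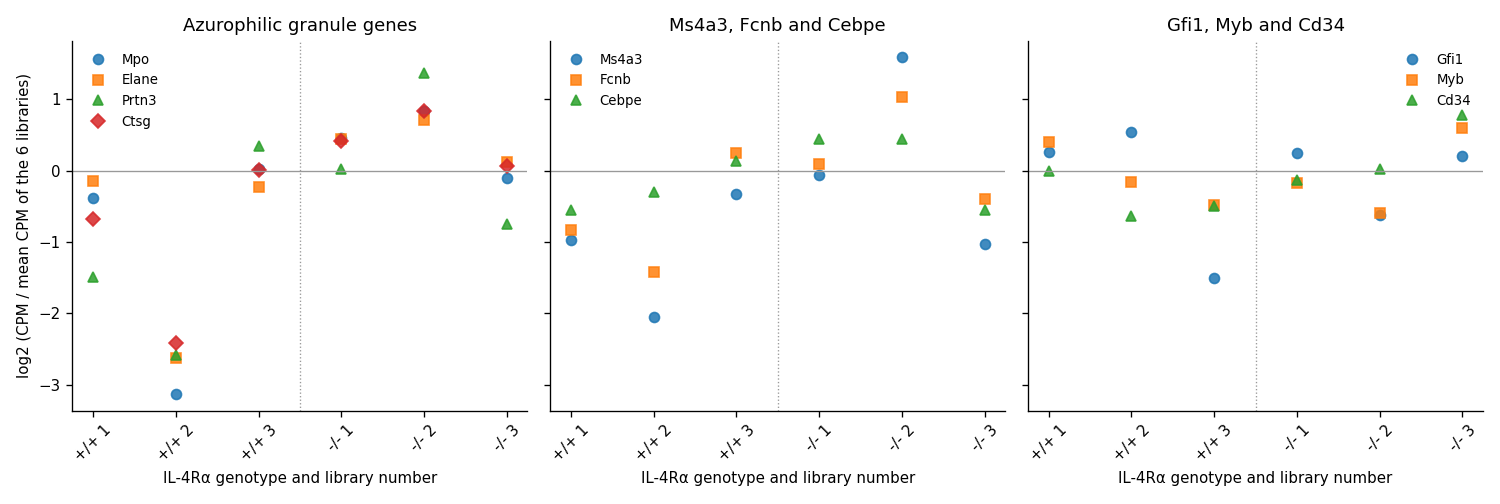
Level of each gene in each library as log2 of its CPM over its mean of the 6 libraries (y axis); the dotted line parts the IL-4Rα+/+ from the IL-4Rα-/- libraries (x axis). The azurophilic genes are all lowest in IL-4Rα+/+ 2 and highest in IL-4Rα-/- 2, while *Gfi1* and *Myb* have their 2 lowest levels in IL-4Rα+/+ 3 and IL-4Rα-/- 2.

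*Ms4a3* and *Fcnb* were also lowest in IL-4Rα+/+ 2 and highest in IL-4Rα-/- 2. *Ms4a3*, a membrane protein gene that marks granulocyte-monocyte progenitors, had 13, 6 and 19 counts in IL-4Rα+/+ and 24, 77 and 13 counts in IL-4Rα-/-. Only IL-4Rα-/- 2 stood above the rest, at 2.69 CPM against 0.217 to 0.856 CPM. Its exact 95% Poisson interval, which covers counting error only, was 2.13 to 3.37 CPM, and that of the next library, IL-4Rα-/- 1, was 0.549 to 1.27 CPM. The log2 fold change of *Ms4a3* was the highest of the 10 at 1.52 with an SE of 0.76, and 0.48 without IL-4Rα-/- 2.

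*Fcnb*, coding for ficolin B, a pattern-recognition lectin of myeloid cells, was at 3.16, 2.10 and 6.68 CPM in IL-4Rα+/+ and at 6.03, 11.5 and 4.26 CPM in IL-4Rα-/-. The groups overlapped. As for *Prtn3*, IL-4Rα-/- 2 was the highest and IL-4Rα+/+ 3 the second of the 6 libraries. The means were 3.98 ± 2.40 CPM and 7.28 ± 3.80 CPM (SD, n = 3 each), with a log2 fold change of 0.87 and an SE of 0.53, and of 0.37 without IL-4Rα-/- 2.

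The transcription factor genes had smaller estimates. *Cebpe*, whose product drives the later steps of granulocyte maturation and the specific granule genes, was at 1.83, 2.17 and 2.94 CPM in IL-4Rα+/+ and at 3.64, 3.64 and 1.82 CPM in IL-4Rα-/-. IL-4Rα-/- 1 and 2 lay above every other library, and IL-4Rα-/- 3 was level with the lowest wild-type library. Its log2 fold change was 0.39 with an SE of 0.34.

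*Gfi1*, a repressor that favours granulocytes over monocytes, was at 1.16, 1.41 and 0.339 CPM in IL-4Rα+/+ and at 1.14, 0.630 and 1.12 CPM in IL-4Rα-/-. The lowest libraries were IL-4Rα+/+ 3, with 9 counts, and IL-4Rα-/- 2, with 18, the 2 that held the most *Prtn3* and *Fcnb*. The log2 fold change was -0.013 with an SE of 0.54, and its sign turned under 7 of 15 alternatives.

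*Myb*, which keeps progenitors dividing and binds promoters of granule protease genes, was at 6.21, 4.23 and 3.36 CPM in IL-4Rα+/+ and at 4.17, 3.11 and 7.13 CPM in IL-4Rα-/-. Its highest levels were in the 2 female libraries, and the genotypes overlapped with means of 4.60 ± 1.46 CPM and 4.81 ± 2.08 CPM (SD, n = 3 each). Its log2 fold change was 0.06 with an SE of 0.37. Without IL-4Rα-/- 3 it was -0.33.

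*Cd34*, a surface sialomucin of progenitors that endothelial cells also carry, was at 2.91, 1.88 and 2.07 CPM in IL-4Rα+/+ and at 2.68, 2.97 and 5.002 CPM in IL-4Rα-/-. IL-4Rα-/- 3 was highest, and IL-4Rα+/+ 1 lay above IL-4Rα-/- 1. The log2 fold change was 0.63 with an SE of 0.32, and 0.30 without IL-4Rα-/- 3.

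**Figure D3:**
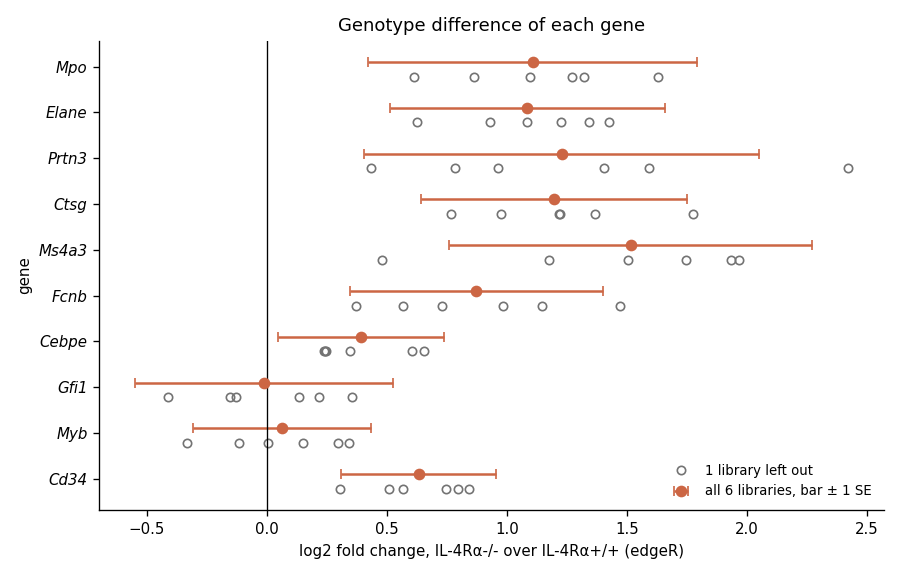
Log2 fold change of IL-4Rα-/- over IL-4Rα+/+ for each gene (x axis) from edgeR, with a bar of ± 1 SE; open circles give the value with 1 library left out. Circles of *Gfi1* and *Myb* lie on both sides of 0, and those of *Prtn3* run from 0.43 to 2.42.

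The sexes were compared as values only. Within the 4 male libraries, the IL-4Rα-/- mean was above the IL-4Rα+/+ mean by 1.48 on the log2 scale for *Mpo*, 1.56 for *Elane*, 1.32 for *Prtn3* and 1.39 for *Ctsg*. Between the 2 female libraries the corresponding differences were 0.27, 0.26, 0.74 and 0.74. The direction of the means was the same in both sexes for these 4 genes. The lowest library, IL-4Rα+/+ 2, and the highest, IL-4Rα-/- 2, were both male. The other male libraries were IL-4Rα+/+ 3 and IL-4Rα-/- 1. Between them *Mpo* was at 11.96 against 16.1 CPM, *Elane* at 5.70 against 9.06 CPM and *Ctsg* at 5.66 against 7.49 CPM. *Prtn3* went the other way, at 22.2 against 17.7 CPM. *Ms4a3* had 13 counts in each female library and a log2 difference of 1.93 in the males. *Cebpe* had a log2 difference of 0.51 in males and of -0.0005 in females. The difference between the sexes was not tested.

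Compared per length of exon, the proteases were the most abundant of the 10 transcripts. The mean over the 6 libraries in CPM per kb of exon was 10.1 ± 8.84 (SD) for *Prtn3*, 6.80 ± 3.43 for *Elane*, 5.43 ± 3.01 for *Ctsg*, 4.203 ± 2.52 for *Fcnb*, 3.43 ± 1.95 for *Mpo* and 2.15 ± 0.687 for *Cebpe*. It was 0.526 ± 0.181 for *Myb*, 0.476 ± 0.483 for *Ms4a3*, 0.401 ± 0.153 for *Cd34* and 0.303 ± 0.125 for *Gfi1*. In this order the step from *Cebpe* to *Myb* was larger than the SD of either gene, and every other step was smaller than the SD of the higher gene. *Lyz2* stood at 10334 ± 2249 CPM per kb in the same libraries.

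Genes of later neutrophil stages were set beside these levels. Of 15 specific granule genes 13 were tested, 10 had a higher estimate in IL-4Rα-/- and 3 had an unadjusted p under 0.05, with a median log2 fold change of 0.46 that was -0.12 without IL-4Rα-/- 2 and 2.06 without IL-4Rα+/+ 3. The 3 were *Camp*, *Ngp* and *Chil1*, of which DESeq2 called *Camp* and *Chil1*, 2 of the list. Their summed level was 3541 to 6221 CPM in IL-4Rα+/+ and 3886 to 7128 CPM in IL-4Rα-/-, mostly from *Cybb*, *Cyba* and *Chil3*, which monocytes also express. *Cybb* was at 1890 to 2465 CPM and *Cyba* at 568 to 654 CPM over the 6 libraries. *Ngp*, a granule protein gene that monocytes do not make in quantity and that was picked after its values were seen, was at 11.1, 2.78 and 15.01 CPM in IL-4Rα+/+ and at 35.9, 63.2 and 10.9 CPM in IL-4Rα-/-. *Camp*, *Ltf* and *Lcn2* were likewise lowest in IL-4Rα+/+ 2 and highest in IL-4Rα-/- 2.

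Of 15 mature neutrophil genes 13 were tested, 8 had a higher estimate and 3 an unadjusted p under 0.05, with a median of 0.25 and sums of 705 to 811 CPM against 749 to 1007 CPM. *S100a8*, which codes for a calcium-binding protein of neutrophils, was at 9.65, 4.45 and 18.0 CPM in IL-4Rα+/+ and at 34.2, 91.2 and 14.7 CPM in IL-4Rα-/-. Its order of libraries was that of *Mpo*. *S100a9* and *Cxcr2* were the others of the 3 with an unadjusted p under 0.05. The genes of highest level in the list ran otherwise: *Csf3r*, the receptor for granulocyte colony-stimulating factor, was at 299 to 438 CPM over the 6 libraries, and *Slpi*, a protease inhibitor gene, was highest in IL-4Rα-/- 1 at 193 CPM. *Pglyrp1*, coding for a peptidoglycan recognition protein, was at 242, 131 and 69.0 CPM in IL-4Rα+/+ and at 170.2, 59.0 and 132 CPM in IL-4Rα-/-, lowest in the library where the proteases were highest. The defining marker *Ly6g* was at 0 to 9 counts in each library. *Ngp*, *Camp*, *Ltf*, *Lcn2* and *S100a8*, named after their values were seen, thus had their lowest and highest libraries in common with the azurophilic genes while others of these lists did not, and their part in the result was not tested.

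**Figure D4:**
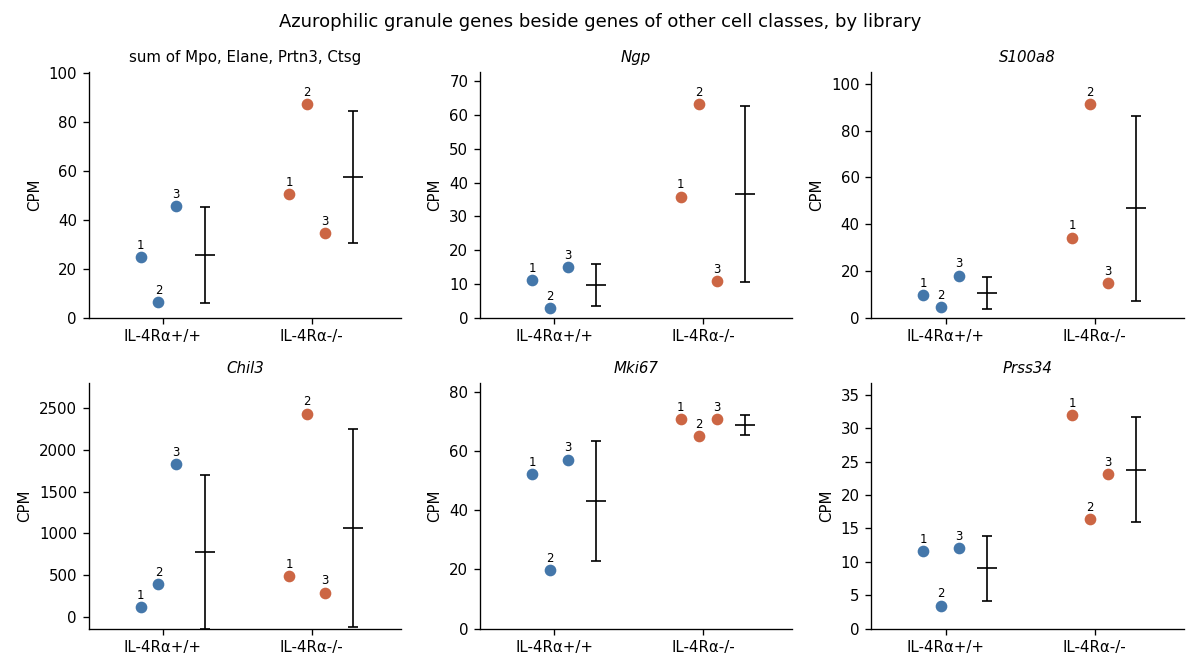
Summed level of the 4 azurophilic genes beside a specific granule gene (*Ngp*), a mature neutrophil gene (*S100a8*), *Chil3*, a cell cycle gene (*Mki67*) and a basophil gene (*Prss34*), in CPM (y axis) by genotype; numbers are library numbers and the bar is the mean ± SD. IL-4Rα+/+ 2 is lowest in all but *Chil3*, and all IL-4Rα-/- libraries lie above all IL-4Rα+/+ libraries for *Mki67* and *Prss34*.

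Genes of the Ly6C-high class of monocytes also varied by library. *Chil3*, a chitinase-like protein gene of these cells, was at 121, 391 and 1826 CPM in IL-4Rα+/+ and at 487, 2431 and 291 CPM in IL-4Rα-/-. *Ccr2*, the chemokine receptor by which they leave the marrow, was at 380.1, 1044 and 1667 CPM against 825, 2007 and 978 CPM. IL-4Rα-/- 2 and IL-4Rα+/+ 3 were the 2 highest libraries for both, as for *Prtn3* and *Fcnb*, while IL-4Rα+/+ 2 was not the lowest. *Ace*, a gene of Ly6C-low monocytes, ran the other way, at 2772, 2122 and 1087 CPM against 1744, 709 and 1603 CPM. Over the 16 monocyte genes, 7 had a higher estimate in IL-4Rα-/-, the median log2 fold change was -0.09 and the sums were 21243 to 25513 CPM against 22483 to 26423 CPM.

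Cell cycle genes varied less between the libraries of a genotype. All 16 genes had a higher estimate in IL-4Rα-/-, 14 without overlap and 8 at an unadjusted p under 0.05, with a median log2 fold change of 0.82. Their sum was 367, 204 and 354 CPM in IL-4Rα+/+ and 461, 429 and 474 CPM in IL-4Rα-/-. *Mki67*, present in dividing cells, was at 52.3, 19.8 and 57.2 CPM against 70.9, 65.1 and 70.8 CPM. *Top2a*, a DNA topoisomerase gene, ran from 19.6 to 68.7 CPM and *Pcna*, the replication clamp gene, from 78.1 to 107 CPM over the 6 libraries. No gene of the list was called by edgeR or DESeq2. As for the azurophilic genes, IL-4Rα+/+ 2 was the lowest library, but IL-4Rα-/- 2 was not the highest.

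Genes of other marrow lineages had higher estimates in IL-4Rα-/- as well. Of 12 basophil and mast cell genes 9 were tested, 8 had a higher estimate and an unadjusted p under 0.05, 7 without overlap, with a median log2 fold change of 1.399 and sums of 12.3 to 27.9 CPM against 38.3 to 70.3 CPM. *Mcpt8* was at 1.70 to 5.81 CPM against 7.70 to 15.6 CPM, and *Hdc*, the histamine-forming enzyme gene, at 2.18 to 3.28 CPM against 4.82 to 6.23 CPM. *Prss34*, a basophil protease gene, was at 11.6, 3.43 and 12.03 CPM in IL-4Rα+/+ and at 31.96, 16.4 and 23.1 CPM in IL-4Rα-/-. Of the 12 genes 2 were at 3 counts or fewer in every library, the mast cell markers *Mcpt4* and *Tpsb2*, both at 0 throughout. *Mcpt2* and *Cma1* of the same list were above that level in at least 1 library. DESeq2 called 3 genes of this list, *Ms4a2*, *Cpa3* and *Hdc*. All 19 erythroid genes tested had a higher estimate, 14 without overlap and 13 at an unadjusted p under 0.05, with a median of 1.43 and sums of 97.0 to 149 CPM against 218 to 518 CPM, and DESeq2 called 4 of them, *Hba-a1*, *Hbb-bt*, *Slc4a1* and *Trim10*. The haemoglobin gene *Hbb-bs* was highest in IL-4Rα-/- 3, at 175 CPM, where the azurophilic genes were the lowest of their group. *Hba-a1* was at 12.8 to 25.1 CPM against 33.9 to 81.5 CPM and *Hbb-bt* at 7.93 to 18.0 CPM against 25.3 to 61.9 CPM. These estimates had the same direction as those of the azurophilic genes, and their part in the result was not tested.

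The lists of genes that regulate or process the granule proteins had small median estimates, with larger ones in both directions for single genes. Of 15 granulopoiesis transcription factor genes 6 had a higher estimate, 1 (*Kmt2a*, with a log2 fold change of -0.49) had an unadjusted p under 0.05 and the median was -0.06, with sums of 2731 to 3168 CPM against 2681 to 2787 CPM. *Spi1*, coding for PU.1, was at 604 to 665 CPM in IL-4Rα+/+ and at 596 to 621 CPM in IL-4Rα-/-. *Cebpb* was at 484 to 764 CPM and *Irf8* at 351 to 460 CPM over the 6 libraries. Of 19 granule protein processing and packaging genes 17 were tested, 12 had a higher estimate and 1 an unadjusted p under 0.05, with a median of 0.13 and sums of 2869.7 to 3633 CPM against 3078 to 4390.3 CPM, and DESeq2 called 1 of them. Both of these were *Lyst*, a lysosomal trafficking gene with a lower estimate, at 148, 169 and 149 CPM in IL-4Rα+/+ and 91.7, 125 and 110.0 CPM in IL-4Rα-/- (log2 fold change -0.51). *Hexa* and *Lamp2*, lysosomal genes, were at 383 to 559.6 and 320.5 to 619.8 CPM. *Ctsc*, coding for the dipeptidyl peptidase that activates the granule serine proteases, was at 403, 620.1 and 938 CPM in IL-4Rα+/+ and at 732, 1379 and 679.8 CPM in IL-4Rα-/-. IL-4Rα-/- 2 and IL-4Rα+/+ 3 were again its highest libraries, and its log2 fold change was 0.51. *Cebpd* and *Serpinb1a*, named after their values were seen, had the same highest libraries and a log2 fold change of 0.53 each.

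The immature neutrophil and progenitor lists gave no calls either. Of 20 immature neutrophil genes 19 were tested, 16 had a higher estimate and 3 (*Prom1*, *Fcna* and *Hmgn2*) an unadjusted p under 0.05, with a median of 0.15 and sums of 5499.7 to 7798 CPM against 6418 to 9160.0 CPM, most of it from *Plac8*, *Sirpa* and *Ctsc*, which monocytes express. *Plac8* was at 1311 to 2013 CPM and *Sirpa* at 1079.7 to 1297 CPM over the 6 libraries. *Prom1* and *Fcna* were highest in IL-4Rα-/- 1 and *Hmgn2* in IL-4Rα-/- 3, unlike the azurophilic genes. Whether the reads of these genes came from immature neutrophils was not tested. Of 18 stem and progenitor cell genes 14 were tested, 8 had a higher estimate and 1 (*Gata2*) an unadjusted p under 0.05, with a median of 0.06 and sums of 230.4 to 276 CPM against 227 to 268 CPM. *Gata2* was also in the basophil and mast cell list. *Hoxa9*, a gene of early progenitors, was at 0 counts in every library. *Flt3*, a receptor of early progenitors, was at 65.3 to 94.9 CPM in IL-4Rα+/+ and at 72.3 to 78.4 CPM in IL-4Rα-/-. *Cdk6* was at 19.6 to 37.1 CPM and *Lmo2* at 83.7 to 106 CPM over the 6 libraries.

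For *Cd34*, the endothelial list was read, since that cell type carries the protein. Of its 10 genes 5 were tested, 2 had a higher estimate and 0 an unadjusted p under 0.05, with a median of -0.23 and sums of 38.7 to 59.3 CPM against 43.6 to 80.6 CPM, mostly from *Stab2* at 31.6 to 69.3 CPM. *Kdr*, an endothelial growth factor receptor gene, was at 2.41 to 4.21 CPM in IL-4Rα+/+ and at 2.71 to 3.01 CPM in IL-4Rα-/-, and *Emcn* had 0 to 4 counts per library. *Esam* was at 2.03 to 5.46 CPM.

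The summed B and plasma cell genes, of which *Xbp1* had the highest level, were highest in IL-4Rα-/- 2, as the azurophilic genes were. So were the summed pancreatic genes, while the summed T and NK cell genes were highest in IL-4Rα+/+ 2. Of 11 B and plasma cell genes 10 had a higher estimate and 1 (*Jchain*) an unadjusted p under 0.05, with a median of 0.65 and sums of 495 to 563 CPM against 574 to 757 CPM. The median was -1.48 without IL-4Rα-/- 3 and 2.09 without IL-4Rα+/+ 2. It rose to 1.14 without IL-4Rα-/- 2, the library with the highest sum. *Xbp1* was at 327 to 563 CPM, *Jchain* at 101 to 188 CPM and *Cd79b* at 13.2 to 37.7 CPM over the 6 libraries. Of 12 T and NK cell genes 7 had a higher estimate and 0 an unadjusted p under 0.05, with a median of 0.04 and sums of 52.5 to 139 CPM against 49.5 to 129.9 CPM. The median was 0.82 without IL-4Rα+/+ 2 and -0.59 without IL-4Rα-/- 3, and *Cd4*, *Cd8a* and *Gzma* were at up to 67.8, 17.8 and 10.6 CPM. The pancreatic acinar list had 11 of 13 genes tested, all 11 higher and 1 (*Cela1*) at an unadjusted p under 0.05, with a median of 3.26 that was -0.25 without IL-4Rα-/- 2 and 7.94 without IL-4Rα+/+ 1. *Cela1* and *Ctrb1*, protease genes, were highest in IL-4Rα-/- 2 at 49.2 and 56.3 CPM. In *Pnlip*, the pancreatic lipase gene, IL-4Rα-/- 2 had 1932 counts and IL-4Rα+/+ 1 had 196, while IL-4Rα+/+ 3 had 0. Without IL-4Rα-/- 2 the log2 fold changes were 0.86 for *Mpo*, 0.93 for *Elane*, 0.43 for *Prtn3* and 0.97 for *Ctsg*.

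The 8 genes whose log2 CPM followed the mean standardized level of the 4 azurophilic genes most closely were *Ssna1*, *Gm45629*, *mt-Tw*, *Uqcc3*, *Lamtor5*, *Gtf2e2*, *Hist1h1a* and *Gm8566*, with Pearson's r of 0.983 to 0.993 over 6 libraries. Most of them spanned far less than the proteases: *Ssna1*, a centrosomal protein gene, ran from 35.6 to 47.1 CPM and *Lamtor5*, of the lysosomal Ragulator complex, from 48.8 to 61.0 CPM. Over so few points 325 genes outside the 10 reached an r of 0.9 or more. Among the 10 genes the r with the same mean was 0.91 for *Fcnb*, 0.86 for *Ms4a3*, 0.58 for *Cebpe*, 0.45 for *Cd34*, -0.24 for *Myb* and -0.53 for *Gfi1*. These points share their libraries, and the values are descriptions.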

How the data were processed

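RNA of splenic monocytes from 6 mice, 3 per genotype, was measured with 1 library per mouse. Per the labels and the study's methods, the authors aligned single-end reads to GRCm38 with STAR 2.6.1a and deposited raw counts of uniquely mapped reads per gene, without normalization. The kit marks strand, but the strand column kept is not given in the sources used here. Identifiers were matched to Gencode M21, with 55240 of 55421 found.

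Genes were filtered with edgeR's filterByExpr at a minimum count of 10. TMM factors were set on the 13849 genes kept, and edgeR 4.0.16 (under R 4.3.3) fitted its quasi-likelihood model with genotype as the only term, Benjamini-Hochberg adjustment over all genes tested and a threshold of 0.15, as in the study's methods. The study used DESeq2 1.22.2; DESeq2 1.42.0 was run as an alternative. CPM used the TMM-scaled library totals, at 26807281 to 29033297 reads on genes per library, and 3 counts or fewer were taken as not seen. The p-values measure the spread between 3 mice per group. Scripts were tested on simulated counts. Alternatives were RLE size factors, library totals, no filter, at least 1 CPM in 3 libraries, limma voom (limma 3.58.1), a replicate block, sex as a term, a threshold of 0.05, and leaving out each library.

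The 10 genes, the 15 gene lists and the tests were chosen with earlier results of these data known. Named genes were the 10, *Il4ra*, the 3 genes of highest mean CPM in each list and any gene called there by edgeR, the 8 genes closest in pattern, and the flanking genes of *Elane* and *Prtn3*. Others, such as *Ngp*, *S100a8*, *Ccr2*, *Camp*, *Ltf*, *Lcn2* and *Plppr3*, were named after their values were seen. So were *Mcpt8* as the neighbour of *Ctsg*, *Tspoap1* and *Lpo* as those of *Mpo*, genes given for counts of 5 or fewer and zero or near-zero markers. Of 215 list genes 214 were found.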

Additional observations from a re-analysis of the deposited data

How the results depend on the processing

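Over 15 alternatives, 149 values of the 10 genes were obtained, of which 139 kept the direction of the reported value. *Ms4a3* gave none under the filter of 1 CPM in 3 libraries. No alternative called a member gene, and only DESeq2 called genes at all, 80 over all genes. The number of the 10 genes with a higher estimate stayed between 8 and 10. *Gfi1* turned to 0.017 with library totals only, 0.15 with limma voom, 0.11 with the replicate block and 0.58 without both libraries numbered 2, an alternative added after seeing the data, under which *Prtn3* turned to -0.012. With 1 library left out, *Gfi1* ran from -0.41 to 0.35 (0.13 without IL-4Rα+/+ 1, 0.35 without IL-4Rα+/+ 2 and 0.22 without IL-4Rα-/- 2) and *Myb* from -0.33 to 0.34 (-0.12 without IL-4Rα+/+ 3 and -0.33 without IL-4Rα-/- 3). The cause was not tested. Removing a library can only end an overlap. Of the 10 genes, 2 to 5 lay wholly higher in IL-4Rα-/- with 1 library left out. The 5 were reached without IL-4Rα+/+ 3, where 18.7% of all genes tested lay wholly higher, and without IL-4Rα-/- 3 (13.4%). The count was 3 without IL-4Rα+/+ 1 (12.4% of all genes) or IL-4Rα-/- 1 (11.2%). It was 2 without IL-4Rα+/+ 2 (10.7%) or IL-4Rα-/- 2 (11.7%).

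Same-numbered libraries had correlations of 0.18, -0.27 and -0.30 in their deviations from the group means, so the replicate numbers were not taken as pairs; with the replicate block 0 genes were called, 0 of them members, and 765 genes had an unadjusted p under 0.05. Depth limits *Ms4a3* and *Gfi1* most, at 6 and 9 counts in their lowest libraries.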

Other observations

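Eosinophil granule genes gave values that were not part of the comparisons above. Of 9 eosinophil genes 8 were tested, 6 had a higher estimate in IL-4Rα-/-, 3 without overlap and at an unadjusted p under 0.05, with 0 called by edgeR and 1 (*Ear1*) by DESeq2, with a median log2 fold change of 0.82 and sums of 171 to 286 CPM in IL-4Rα+/+ against 181 to 327 CPM in IL-4Rα-/-. *Prg2*, coding for the major basic protein of eosinophil granules, was at 10.4, 2.35 and 2.30 CPM in IL-4Rα+/+ and at 14.4, 11.8 and 16.0 CPM in IL-4Rα-/-. *Ccr3*, the eotaxin receptor gene, was at 52.7, 67.0 and 66.8 CPM against 137, 89.6 and 73.3 CPM. *Ear2*, a ribonuclease gene that Ly6C-low monocytes also express, was at 211, 181 and 96.8 CPM against 164, 71.0 and 142 CPM, with overlapping groups.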
